A study of Mus musculus with 6 samples.

Results

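*Fn1*, *Tnc*, *Tnxb*, *Thbs1*, *Thbs2*, *Thbs3*, *Thbs4*, and *Postn* encode fibronectin, tenascin-C, tenascin-X, thrombospondins 1 to 4, and periostin, all secreted glycoproteins of the extracellular matrix. They were chosen by name, as the genes whose Ensembl identifier carries these symbols in the GRCm38 annotation, and they are 8 of the 55401 genes in the count table. All 8 reached 2 counts in 5 or more of the 6 libraries, the filter that left 22318 genes for testing. Cells pull fibronectin into fibrils through integrins, and these fibrils hold collagens and growth factors. Tenascin-C, the thrombospondins, and periostin are matricellular proteins, which tune how cells attach to and move over matrix, while tenascin-X binds and spaces collagen fibrils. In peripheral nerve, fibronectin and tenascin-C accumulate where the nerve is cut, in the tissue that Schwann cells (SCs) cross.

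The study examined Plexin-B1, a semaphorin receptor, in SCs after nerve injury. Poly(A) RNA of primary SCs from dorsal root ganglia (DRG) of adult mice was sequenced in bulk, in 3 libraries of WT and 3 of *Plxnb1-/-* cells, labelled PB1 -/-. The mutant allele, *Plxnb1* tm1Matl, is a gene trap with lacZ and neo that is present in every cell of the mouse and not in SCs alone, and the RNA-seq controls are labelled WT although heterozygous littermates also served as controls elsewhere in the study. Both genotypes were cultured on poly-L-lysine and laminin in serum with forskolin, neuregulin, and ascorbic acid, and fibroblasts were depleted through Thy1. These additions and several passages set the state of the cells, so the libraries describe dividing SCs in a dish and not SCs in a nerve. Nothing states that the 3 libraries of a genotype came from separate animals, so p-values measure the spread between these libraries, which may be technical. The libraries held between 59252048 and 77280964 counts, and 3 counts corresponded to between 0.0388 and 0.0506 CPM (counts scaled to library size) before the TMM factors that enter every CPM given below, a floor that covers counting error only.

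In each genotype, values are given in the order of replicates 1, 2, and 3. *Plxnb1* itself measured 61.8, 45.4, and 96.4 CPM in the WT libraries and 13.1, 16.6, and 18.6 CPM in the *Plxnb1-/-* libraries. Every mutant library was thus below every WT library. In the study, exons downstream of the gene trap lost expression, while the counts here cover the whole gene. Which exons hold the remaining counts was not examined. The 10 SC markers were detected in all libraries, led by *Ncam1*, and *Sox10*, the transcription factor that defines the SC lineage, lay at 432 CPM or more in each. *S100b*, whose product the study stained to mark SCs, was far lower, at 7.09 to 8.22 CPM. The purity the paper states for its cultures leaves room for other cells. The summed level of the 10 markers was 3946, 3440, and 3997 CPM in the WT and 4025, 4418, and 4447 CPM in the *Plxnb1-/-* libraries 1, 2, and 3. The summed level was thus higher in every *Plxnb1-/-* library than in any WT library, opposite to *Fn1* and *Tnc*. By log2 fold change all 10 were higher in *Plxnb1-/-* SCs (median 0.19, and 0.15 without WT replicate 2), 8 of them at an unadjusted p below 0.05, against 6.95% of all tested genes, and 6 without WT replicate 2, against 5.0%. WT replicate 2 also stood apart, with the lowest level of 9 of these 10 markers.

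The 8 fibroblast markers, all of them detected, summed to 770.2, 1113, and 889.8 CPM in the WT libraries and to 792.0, 784.3, and 783.5 CPM in the *Plxnb1-/-* libraries. *Thy1*, whose product was used for the depletion, was the most abundant of them, at 429 CPM, 652 CPM, and 489.9 CPM in WT and 409.7 CPM, 408.7 CPM, and 383.7 CPM in *Plxnb1-/-* libraries, and *Dpt*, *Pi16*, and *Ly6a* lay near the bottom of the range, at 1.23 CPM or less in each library. WT replicate 2 held the highest level of 5 of the 8, and 1 of the 8, *Dcn*, is also among the matrix partners described further on. Fewer cells of a type and less RNA per cell cannot be told apart in bulk RNA, and the part of fibroblasts in the results on matrix genes was not tested. Each member's fold change is therefore given with all libraries and without WT replicate 2. Markers of other cells had sums in WT and *Plxnb1-/-* libraries of 38.0 ± 2.75 and 44.5 ± 3.71 CPM for 7 macrophage genes led by *Csf1r* and 73.0 ± 9.79 and 69.2 ± 3.31 CPM for 5 endothelial genes led by *Cdh5*. The sums were 161 ± 7.15 and 179 ± 13.2 CPM for 7 neuronal genes led by *Tubb3* and 768 ± 62.9 and 854 ± 12.0 CPM for the satellite glia genes *Kcnj10* and *Fabp7* (SD, n = 3). The macrophage, neuronal, and satellite glia sums were higher in every *Plxnb1-/-* library than in any WT library, though *Kcnj10* made up most of the last and *Fabp7* overlapped between the genotypes. The endothelial sums overlapped, and the part of these cells in the results was not tested either.

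**Figure D1:**
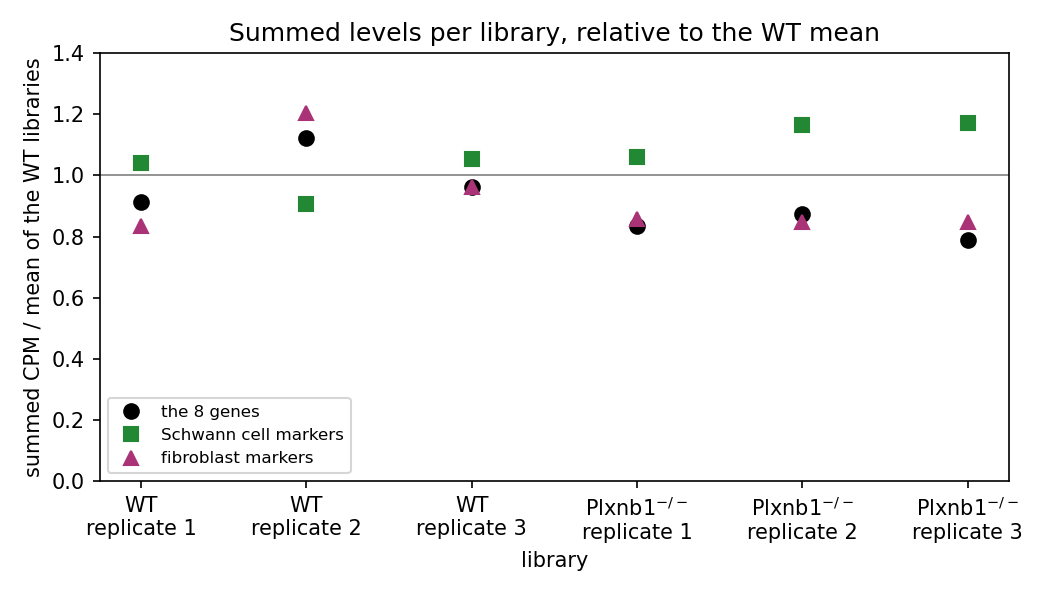
Summed CPM of the 8 matrix genes (circles), the 10 SC markers (squares), and the 8 fibroblast markers (triangles) in each library, divided by the mean of the 3 WT libraries. WT replicate 2 is highest for the matrix genes and fibroblast markers, at 1.12 and 1.20, and lowest for the SC markers, at 0.907.

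In all, 5 of the genes were lower in *Plxnb1-/-* SCs by similar amounts, and none of them passed the main test. *Fn1* (GRCm38 chromosome 1, 71585520 to 71653200, minus strand) measured 7442, 9692, and 7998 CPM in the WT libraries. It measured 6652, 7199, and 6482 CPM in the *Plxnb1-/-* libraries. Fibronectin RNA was therefore highest in WT replicate 2 and lowest in *Plxnb1-/-* replicate 3, and the genotypes did not overlap, although the nearest libraries lay only 2.90% of the WT mean apart. Its mean was 8377 ± 1172 CPM for WT, against 6778 ± 375 CPM for *Plxnb1-/-* SCs (SD, n = 3 each). The log2 fold change was −0.31 with a standard error of 0.09 (edgeR adjusted p = 0.284), and −0.18 without WT replicate 2. *Fn1* had the highest CPM of the 22318 tested genes and took between 0.648% and 0.957% of all counts of a library.

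*Tnc* (chromosome 4, 63959785 to 64047015, minus strand) measured 5750, 6362, and 5895 CPM in the WT libraries and 4919, 5270, and 4612 CPM in the *Plxnb1-/-* libraries. Tenascin-C, which weakens adhesion to fibronectin, had the smallest unadjusted p of the 8 genes, with a gap of 7.997% of the WT mean between the nearest libraries of the genotypes and coefficients of variation of 5.33% in WT and 6.68% in *Plxnb1-/-* libraries. Its log2 fold change was −0.28 with a standard error of 0.06 (edgeR adjusted p = 0.266). Without WT replicate 2 it was −0.24, the least moved of the 5 genes.

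*Thbs2* (chromosome 17, 14665500 to 14694235, minus strand) measured 2831, 3568, and 2873 CPM in the WT libraries and 2545, 2560, and 2355 CPM in the *Plxnb1-/-* libraries. Thrombospondin 2, which binds matrix metalloproteinases and is taken up with them through *Lrp1*, did not overlap between the genotypes, with a gap of 8.78% of the WT mean. Its log2 fold change was −0.31 with a standard error of 0.09 (edgeR adjusted p = 0.273), and −0.19 without WT replicate 2. *Thbs1* (chromosome 2, 118111876 to 118127133, plus strand) measured 2460, 3669, and 2866 CPM in the WT libraries and 2595, 2431, and 1992 CPM in the *Plxnb1-/-* libraries. Thrombospondin 1, which activates latent TGF-β, overlapped between the genotypes, since WT replicate 1 lay below *Plxnb1-/-* replicate 1. Its log2 fold change of −0.36 was the lowest of the 8 but had a standard error of 0.14 (edgeR adjusted p = 0.331), and it came to −0.18 without WT replicate 2.

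*Thbs3* and *Thbs4* belong to the pentameric thrombospondins and were present at far lower levels than the trimeric *Thbs1* and *Thbs2*. *Thbs3* (chromosome 3, 89215180 to 89226837, plus strand) measured 22.3, 29.5, and 24.7 CPM in the WT libraries and 21.3, 20.8, and 20.9 CPM in the *Plxnb1-/-* libraries. The genotypes did not overlap, with a gap of 4.16% of the WT mean, and the *Plxnb1-/-* libraries were nearly equal, with a coefficient of variation of 1.21% against 14.4% in WT. Its log2 fold change was −0.28 with a standard error of 0.09 (edgeR adjusted p = 0.293), and −0.16 without WT replicate 2. *Thbs4* (chromosome 13, 92751590 to 92794818, minus strand) measured 2.20, 5.50, and 4.15 CPM in the WT libraries and 3.45, 3.53, and 3.84 CPM in the *Plxnb1-/-* libraries, from between 141 and 322 counts. All *Plxnb1-/-* values lay inside the WT range, and the log2 fold change of −0.13 (standard error 0.26) became 0.18 without WT replicate 2, so no direction can be given.

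*Postn* and *Tnxb* did not share the pattern. *Postn* (chromosome 3, 54361109 to 54391037, plus strand) measured 2681, 2683, and 2668 CPM in the WT libraries and 2601, 2764, and 2826 CPM in the *Plxnb1-/-* libraries. Periostin, a TGF-β-inducible ligand of αv integrins that binds fibronectin and tenascin-C, was the steadiest of the 8 genes among WT libraries, with a coefficient of variation of 0.310%, and WT replicate 2 was not raised. Its log2 fold change was 0.03 with a standard error of 0.05 (edgeR adjusted p = 0.825), and it stayed at 0.03 without WT replicate 2 and lay between 0.0033 and 0.06 with each library left out in turn. *Tnxb* (chromosome 17, 34670535 to 34719815, plus strand) measured 6.30, 4.80, and 5.55 CPM in the WT libraries and 6.07, 5.93, and 6.68 CPM in the *Plxnb1-/-* libraries. Tenascin-X RNA overlapped between the genotypes and was lowest in WT replicate 2, the library where 6 of the 8 genes were highest. Its log2 fold change was 0.16 with a standard error of 0.11 (edgeR adjusted p = 0.542), and it came to 0.08 without WT replicate 2 and to 0.27 without WT replicate 1.

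**Figure D2:**
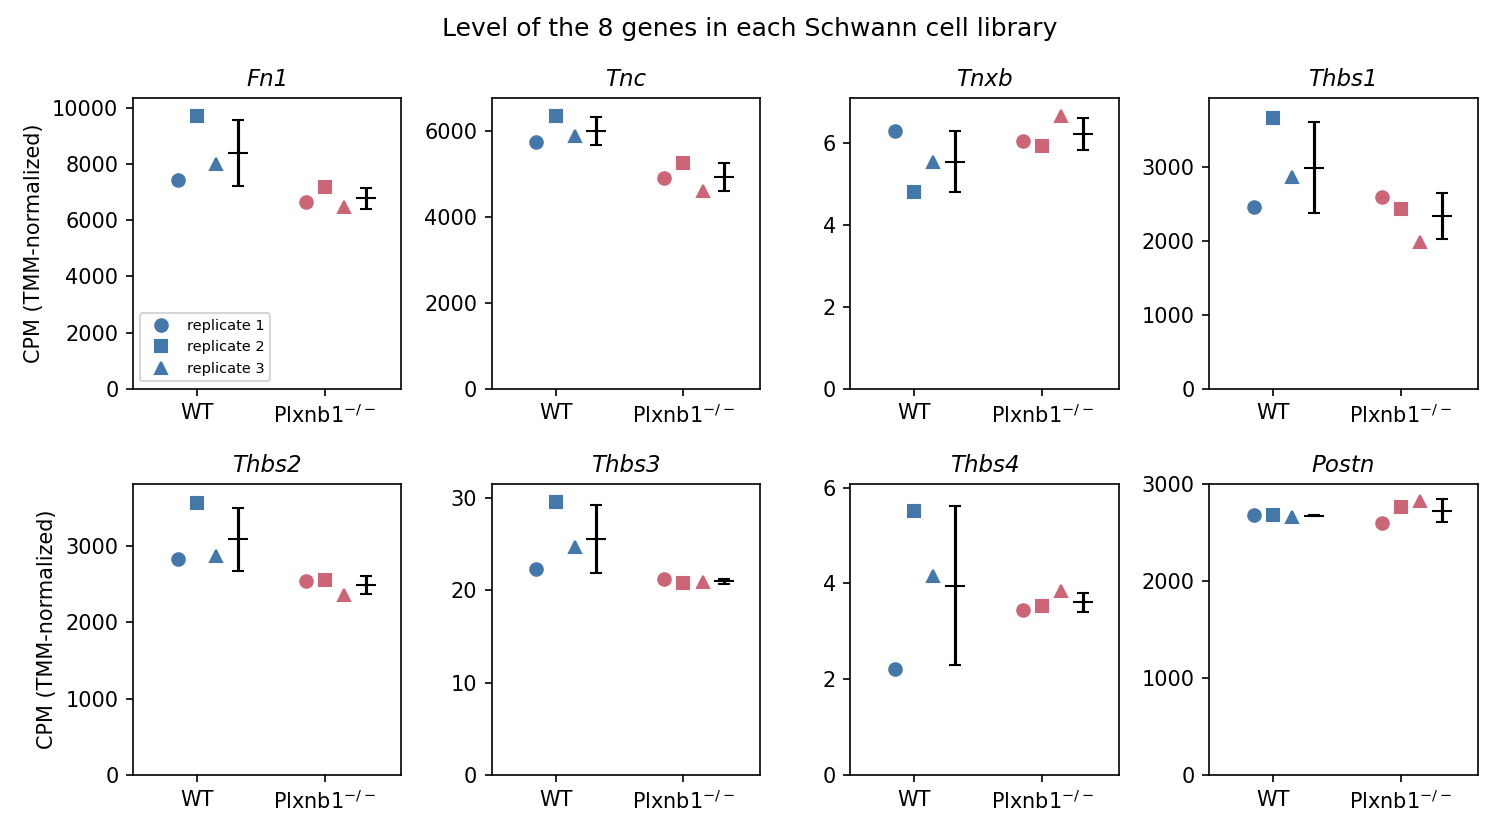
TMM-normalized CPM of each gene in the 3 WT (blue) and 3 *Plxnb1-/-* (red) libraries, with the replicate number as the symbol and the mean ± SD in black; each axis starts at 0 and has its own scale. *Fn1*, *Tnc*, *Thbs2*, and *Thbs3* do not overlap between the genotypes, while *Thbs1*, *Thbs4*, *Tnxb*, and *Postn* do.

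Over the 8 genes, edgeR's quasi-likelihood test called 0 (Benjamini-Hochberg p under 0.05 with a log2 fold change larger than 0.25 in size), where it called 8 of 22318 genes in all (0.0358%). At an unadjusted p below 0.05, 5 of the 8 were lower in *Plxnb1-/-* SCs (*Fn1*, *Tnc*, *Thbs1*, *Thbs2*, and *Thbs3*) and 0 were higher, against 6.78% and 6.95% of all tested genes. DESeq2, the tool the study names, called 3 of the 8 lower (adjusted p = 0.0461 for *Fn1*, 0.00576 for *Tnc*, and 0.0302 for *Thbs2*) and 0 higher, against 1.17% and 1.01% of the 15393 genes to which it gave an adjusted p. Without the filter on low counts, edgeR called *Tnc* and *Thbs2*, against 0.949% of 31191 genes. Every *Plxnb1-/-* library lay below every WT library for 4 of the 8, against 10.4% of tested genes, and above every WT library for 0 of the 8, against 9.3%. The median log2 fold change of the 8 was −0.28, beside 0.00496 over all tested genes, of which 48.5% were lower in *Plxnb1-/-* SCs. The members were chosen with these libraries already examined, so the counts describe the genes and test nothing about the set.

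The DESeq2 calls, for these genes and over the whole table, changed when single libraries were left out. Without WT replicate 2, DESeq2 called 0 of the 8, against 0.602% of genes called lower and 0.471% called higher in that fit, because *Fn1* no longer passed (adjusted p = 0.0901) and the log2 fold changes of *Tnc* (−0.24, DESeq2 adjusted p = 0.0125) and *Thbs2* (−0.20, DESeq2 adjusted p = 0.0227) fell short of the cutoff on size. *Fn1* was also lost without WT replicate 3 or any *Plxnb1-/-* library, *Thbs2* without any *Plxnb1-/-* library, and *Tnc* without *Plxnb1-/-* replicate 3, at log2 fold changes from −0.35 to −0.28 for *Fn1*, from −0.33 to −0.28 for *Thbs2*, and of −0.24 for *Tnc*. Over the whole table, DESeq2 called 335 genes with all libraries and 224 without WT replicate 3. It called 290, 128, and 51 genes without *Plxnb1-/-* replicates 1, 2, and 3. Losses of members there came with fewer calls over all genes. Without WT replicate 1, DESeq2 called 4 of the 8, *Thbs3* being added (adjusted p = 0.00564), against 3.16% of genes called lower in that fit. With edgeR, 4 of the 8 were lower at an unadjusted p below 0.05 without WT replicate 2, against 3.99% of the genes tested there, with *Thbs1* no longer among them, and the median log2 fold change of the 8 was −0.17. The fibroblast markers did not all move together, with 6 of the 8 lower and 2 higher in *Plxnb1-/-* SCs by log2 fold change (median −0.22, and −0.01 without WT replicate 2). In WT replicate 1 their sum lay below that of all 3 *Plxnb1-/-* libraries, with *Dcn* at 234 CPM against 273 to 289 CPM. *Thy1* and *Pdgfra*, alone of the 8, were higher in every WT library than in any *Plxnb1-/-* library, as were 10.4% of all tested genes. *Fn1*, *Tnc*, *Thbs2*, and *Thbs3* were too.

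**Figure D3:**
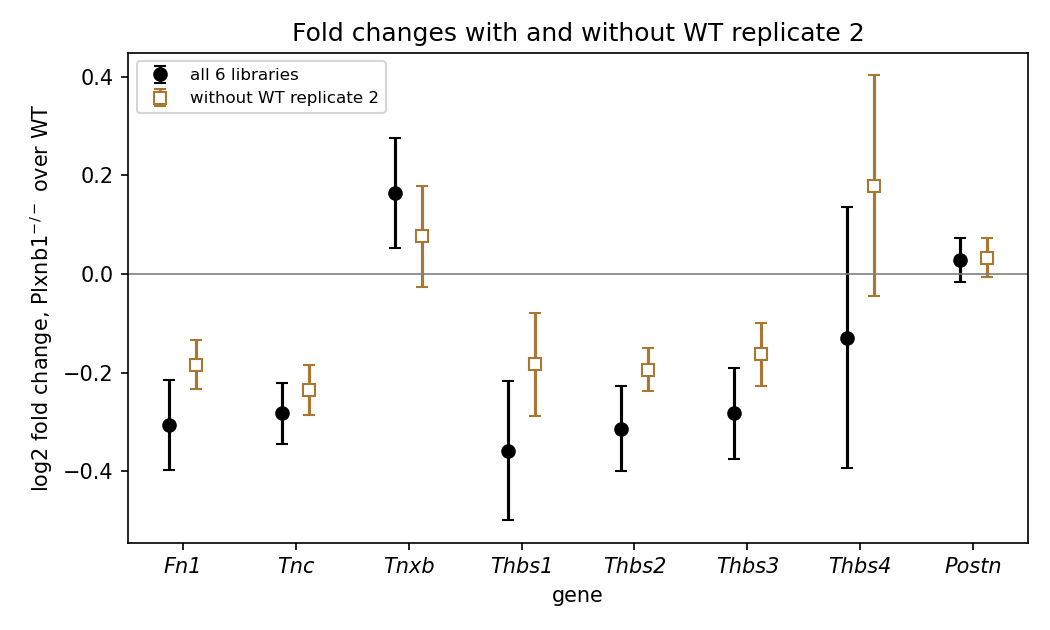
Log2 fold change of *Plxnb1-/-* over WT with its standard error from edgeR, with all 6 libraries (black circles) and without WT replicate 2 (open squares). Without that library, *Fn1*, *Thbs1*, *Thbs2*, and *Thbs3* move toward 0, to between −0.19 and −0.16, *Tnc* moves less, from −0.28 to −0.24, and *Thbs4* has the opposite sign.

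Levels of different genes were compared per length, as CPM per kilobase of merged exons, since the genes carry between 3289 and 12209 exonic bases. In WT the order was *Tnc* (772 ± 41.1), *Fn1* (717 ± 100.3), *Thbs1* (494 ± 101), *Thbs2* (441 ± 59.1), *Postn* (308 ± 0.954), *Thbs3* (5.29 ± 0.762), *Thbs4* (1.20 ± 0.504), and *Tnxb* (0.455 ± 0.0613), in CPM per kilobase (SD, n = 3). The order in *Plxnb1-/-* SCs was the same, from 635 ± 42.4 for *Tnc*, 580.1 ± 32.0 for *Fn1*, and 385 ± 51.4 for *Thbs1* to 355 ± 16.3 for *Thbs2*, 314 ± 13.3 for *Postn*, 4.35 ± 0.0525 for *Thbs3*, 1.097 ± 0.0619 for *Thbs4*, and 0.510 ± 0.0325 for *Tnxb*. The libraries of *Tnc* and *Fn1* overlapped in either genotype, as did those of *Thbs1* and *Thbs2*, although within each *Plxnb1-/-* library *Tnc* lay above *Fn1*. The step from *Postn* to *Thbs3* was 58.1-fold in WT and 72.2-fold in *Plxnb1-/-* SCs, and it split the genes into 5 abundant and 3 scarce ones. *Tnc* and *Fn1* ranked 11 and 16 among all tested genes on this scale, and *Tnxb* ranked 15557. The lead of *Thbs2* over *Postn* was 1.43-fold in WT and 1.13-fold in *Plxnb1-/-* SCs, without overlap of their libraries in either. Merged exons join those of all annotated transcripts, 8702 bases for *Postn* and 7003 for *Thbs2*. A place in this order therefore depends on that length, and which transcripts the cells made was not examined. By CPM alone, *Thbs2*, *Postn*, and *Thbs1* ranked 12, 13, and 14 among all tested genes.

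The 8 genes together took 2.12%, 2.57%, and 2.23% of all counts in WT replicates 1, 2, and 3 and 1.96%, 2.03%, and 1.83% in the *Plxnb1-/-* replicates. *Fn1* held between 34.4% and 37.3% of their summed CPM, *Tnc* between 24.5% and 27.1%, *Thbs2* between 12.6% and 13.7%, and *Thbs1*, which varied more, between 10.9% and 14.1%, and in each case the genotypes overlapped. *Thbs4* and *Tnxb*, at 0.0365% or less, varied about 2-fold between libraries, also with overlap. The *Fn1* to *Tnc* ratio of CPM was 1.39 ± 0.119 in WT and 1.38 ± 0.0276 in *Plxnb1-/-* SCs, and the *Thbs1* to *Thbs2* ratio was 0.965 ± 0.0846 and 0.938 ± 0.0875 (SD, n = 3). *Postn* held 12.7%, 10.3%, and 11.9% in WT replicates 1, 2, and 3 and 13.4%, 13.6%, and 15.4% in the *Plxnb1-/-* replicates. Its share was thus larger in every *Plxnb1-/-* library, while its own CPM overlapped between the genotypes. The *Tnc* to *Postn* ratio was 2.15, 2.37, and 2.21 in WT and 1.89, 1.91, and 1.63 in the *Plxnb1-/-* replicates 1, 2, and 3, again without overlap.

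Several of the genes share bases with a gene on the other strand, and the strand setting of the counting is not given in the sources used here. Exons on the opposite strand cover 2.50% of the exonic bases of *Fn1* (*Apol7d*), 2.26% of *Tnc* (8030451A03Rik), 3.42% of *Thbs1* (Gm29233), and 6.59% of *Thbs3* (*Mtx1*). If the counting ignored strand, reads there cannot be told apart by gene. *Apol7d* had a log2 fold change of −0.35 and Gm29233 of −0.36, close to *Fn1* and *Thbs1*, while 8030451A03Rik fell further than *Tnc*, at −0.44, and *Mtx1*, the partner of *Thbs3*, had −0.02. *Tnxb* shares 6.41% of its 50-base stretches with *Tnxa*, which had a count of 0 in every library, so the level of *Tnxb* is uncertain by what the alignment gave to either copy. *Thbs2*, *Thbs4*, and *Postn* share no 50-base stretch with a transcript of another gene.

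The genes with the most similar pattern over the 6 libraries were sought among 10154 other genes with a mean of at least 10 CPM (10155 for *Tnxb* and *Thbs4*), by the root mean square (RMS) difference of log2 CPM centered per gene. The nearest genes were *Tmtc4*, *Apol7d*, and *Scara3* for *Fn1* (RMS 0.0193 to 0.0251), and Gm37539, *Mrvi1*, and *Junb* for *Tnc* (0.0242 to 0.0312). They were Gm29233, *Ebf1*, and *Fam214a* for *Thbs1* (0.0173 to 0.0375), *Cdh11* and *Asns* for *Thbs2* (0.0123 and 0.0204), and *Adcy7*, *Epha1*, and *Vcan* for *Thbs3* (0.0148 to 0.0200). *Vcan* encodes versican, a large matrix proteoglycan, and *Cdh11* an adhesion molecule of mesenchymal cells. *Apol7d* and Gm29233 are the opposite-strand partners of *Fn1* and *Thbs1*, so their likeness cannot be told apart from shared reads. For *Postn* the nearest were *Ckb*, *Samd4*, and *Ewsr1* (0.00766 to 0.0117), and for *Tnxb* *Cdca8*, *Kif20a*, and *Ccna2* (0.0179 to 0.0217), all 3 of which act in cell division. *Thbs4* had no close match, with *Sparcl1*, *Aldh1a2*, and *Cygb* at 0.0664 to 0.130.

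The other family genes *Tnr*, *Tnn*, *Comp*, and *Tgfbi* were all tested. *Tgfbi*, a paralog of *Postn*, was the most abundant, with 154, 159, and 167 CPM in the WT libraries and 180.1, 188, and 218 CPM in the *Plxnb1-/-* libraries. It was thus higher in every *Plxnb1-/-* library, opposite to *Fn1* and *Tnc*, at a log2 fold change of 0.29 (edgeR adjusted p = 0.273, DESeq2 adjusted p = 0.0214), and DESeq2 also called it without WT replicate 2. Without *Plxnb1-/-* replicate 3, its highest library, the edgeR log2 fold change of *Tgfbi* was 0.20, short of the cutoff on size. Tenascin-R (*Tnr*, −0.25, standard error 0.31), the lowest fold change of these 4, lay at 0.666 CPM or less in each library, and *Comp*, thrombospondin 5, at 1.69 CPM or less.

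Of 11 integrin genes whose products bind these proteins, 10 were tested (*Itgb6*, at 0 in 3 libraries, was not), and edgeR called 0, with 2 lower and 2 higher at an unadjusted p below 0.05, against 6.78% and 6.95% of all tested genes. The median log2 fold change of the 10 was 0.05. DESeq2 called *Itga5* lower and *Itga8* and *Itgb8* higher, against 1.17% and 1.01% of the genes with a DESeq2 adjusted p. *Itga5*, the α subunit of the main fibronectin receptor, measured 592, 802, and 643 CPM in the WT libraries and 552, 537, and 430.5 CPM in the *Plxnb1-/-* libraries. Like *Fn1*, it was highest in WT replicate 2 and lowest in *Plxnb1-/-* replicate 3, and it had a log2 fold change of −0.42 (DESeq2 adjusted p = 0.0229). *Itga8*, which also binds fibronectin and tenascin-C, had 0.78 (DESeq2 adjusted p = 0.0312) at 4.95 CPM or less, and *Itgb8*, whose product frees TGF-β, had 0.31 (DESeq2 adjusted p = 0.0461). *Itgb1*, the most abundant, had −0.03. Of 10 other receptors, DESeq2 called only *Sdc4*, the fibronectin coreceptor syndecan 4, which had 0.29 (DESeq2 adjusted p = 0.0211). Its shares over all genes were the same 1.17% lower and 1.01% higher. For these receptors edgeR called 0, with 1 lower and 2 higher at an unadjusted p below 0.05, against 6.78% and 6.95% of all tested genes. Their median log2 fold change was 0.01. Without WT replicate 2, DESeq2 called 0 integrins and 0 of these receptors, against 0.602% of genes called lower and 0.471% called higher in that fit. In DESeq2, *Itgb8* (0.20, DESeq2 adjusted p = 0.00947) and *Sdc4* (0.22, DESeq2 adjusted p = 0.0491) then missed the cutoff on size alone, and *Itga5* (−0.29) and *Itga8* (0.57) that on p. *Lrp1*, the most abundant, had −0.02, *Cd36*, a thrombospondin receptor, 0.39, and *Sdc2* −0.14.

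The 14 matrix partners, which bind or process these proteins, shared the direction of *Fn1* in 11 genes with all libraries, against 48.5% of all tested genes. Without WT replicate 2 they did so in 7 genes, and the share of all genes in that fit is not given here. Every *Plxnb1-/-* library lay below every WT library in 6 of the 14, against 10.4%. Their median log2 fold change was −0.12, and −0.02 without WT replicate 2, the library in which 11 of the 14 were highest. edgeR called 0, with 6 lower and 1 higher at an unadjusted p below 0.05 (6 and 0 without WT replicate 2, against 3.99% and 5.0%), against 6.78% and 6.95%. DESeq2 called *Col1a1* (−0.30, adjusted p = 0.0263) and *Lox* (−0.42, adjusted p = 0.0248) lower and 0 higher, against 1.17% and 1.01% of the genes with a DESeq2 adjusted p. *Lox*, the enzyme that crosslinks collagen, measured 1081, 1501, and 1111 CPM in the WT libraries and 1015, 911, and 834 CPM in the *Plxnb1-/-* libraries. *Col14a1* had the highest fold change of the list, 0.23. Without WT replicate 2, DESeq2 called 0 of the 14, against 0.602% of genes called lower and 0.471% called higher in that fit. There *Col1a1* (−0.19, DESeq2 adjusted p = 0.0094) missed the cutoff on size alone and *Lox* (−0.25, DESeq2 adjusted p = 0.0598) that on p. Of 8 proteases, DESeq2 called *Mmp9* (−0.87, adjusted p = 0.00967), which was at 10.5 CPM or less, and *Plau* (−0.45 in edgeR, DESeq2 adjusted p = 0.0149), the urokinase that activates plasminogen. It called 0 proteases higher, where its shares over all genes were 1.17% lower and 1.01% higher. edgeR called 0 of the 8, with 3 lower and 1 higher at an unadjusted p below 0.05, against 6.78% and 6.95% of all tested genes, while 5 of the 8 were higher by log2 fold change (median 0.04). DESeq2 called 0 of the 8 proteases without WT replicate 2, against 0.602% and 0.471% of genes in that fit, where *Mmp9* had −0.57 and *Plau* −0.32. *Mmp14*, the most abundant, had −0.12 and *Mmp3* 0.32.

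Genes of TGF-β and of serum response factor and YAP, which act on matrix genes in many cells, were read in the same way. Of 16 TGF-β pathway genes edgeR called 0, with 6 lower and 3 higher at an unadjusted p below 0.05 (3 and 2 without WT replicate 2, against 3.99% and 5.0%), against 6.78% and 6.95% of all tested genes. Their median log2 fold change was −0.04. DESeq2 called *Tgfb2* and *Tgfb3* lower and *Tgfbr3* higher, against 1.17% and 1.01% of the genes with a DESeq2 adjusted p. The ligand *Tgfb2* measured 35.2, 39.4, and 32.2 CPM in the WT libraries and 29.4, 25.8, and 21.2 CPM in the *Plxnb1-/-* libraries, with a log2 fold change of −0.48 (DESeq2 adjusted p = 0.00639). *Tgfb3* had −0.33 (DESeq2 adjusted p = 0.0284) and *Tgfbr3*, the coreceptor betaglycan, 0.46 (DESeq2 adjusted p = 0.00268). Without WT replicate 2, DESeq2 called 1 of the 16 lower (*Tgfb2*) and 1 higher (*Tgfbr3*), against 0.602% and 0.471% of genes in that fit. *Tgfb3* was no longer called there (−0.24, DESeq2 adjusted p = 0.113). Of 13 genes of serum response factor and YAP, 10 were lower with all libraries, against 48.5% of all tested genes. Without WT replicate 2, 9 of the 13 were lower, and the share of all genes in that fit is not given here. Their median log2 fold change was −0.15, and −0.11 without WT replicate 2. edgeR called 0, with 7 lower and 1 higher at an unadjusted p below 0.05 (5 and 0 without WT replicate 2, against 3.99% and 5.0%), against 6.78% and 6.95%. DESeq2 called *Cnn1* (−0.44, adjusted p = 0.000233) and *Acta2* (−0.42, adjusted p = 0.0174), both contractile genes, lower and 0 higher, against 1.17% and 1.01% of all genes with a DESeq2 adjusted p. It called both without WT replicate 2 as well, at −0.37 and −0.26, the latter close to the cutoff on size. In that fit 0.602% of genes were called lower and 0.471% higher. *Acta2*, the most abundant, is also a marker of mural cells, whose 6 markers summed to 1315, 1777, and 1446 CPM in the WT libraries and 1226, 1246, and 1125 CPM in the *Plxnb1-/-* libraries. This fall lay in *Acta2* itself and *Cspg4*, while the other 4 were higher by log2 fold change (median of the 6 0.08, and −0.03 without WT replicate 2). *Ankrd1* had the lowest fold change, −0.65, at 0.719 CPM or less, and *Mrtfb* the highest, 0.12.

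RefSeq (GRCm38.p6) promoters were at hand for 6 of the 8 genes, with 8 starts, and the 250 bases before each start were searched on both strands. The letters TATAAA, the TATA box, were found at 4 of these starts, 2 of which share 1 copy in *Tnc* and 1 of which, in *Thbs2*, has it on the other strand, and in 12.4% of all 32851 promoters, and CAGACA, bound by SMAD proteins, at 3 and in 17.1%. TGANTCA, bound by AP-1, was found at 1 (*Tnxb*) and in 6.75%, GGAATG, bound by TEAD proteins, at 1 (*Thbs4*) and in 12.6%, and the CArG box of serum response factor at 0 and in 1.47%. *Thbs3* held none of the 5. The 150 bases before a start of *Tnc* and *Thbs2*, which DESeq2 called, and of *Postn*, which held its level, are shown 5′ to 3′ on the strand of the gene. Capitals mark TATAAA in *Tnc* (first base 126 before the start) and *Postn* (26 before), and in *Thbs2* both copies of CAGACA, which lie on the other strand and read TGTCTG (67 and 44 before). They cover chr4:64047016-64047165 (minus strand), chr17:14694263-14694412 (minus strand), and chr3:54360957-54361106 (plus strand), where the annotation has no exon. A match is a description of the letters and not of a bound site.
Tnc: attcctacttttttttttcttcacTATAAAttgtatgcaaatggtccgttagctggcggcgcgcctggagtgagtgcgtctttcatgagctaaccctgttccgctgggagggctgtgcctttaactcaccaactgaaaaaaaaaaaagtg
Thbs2: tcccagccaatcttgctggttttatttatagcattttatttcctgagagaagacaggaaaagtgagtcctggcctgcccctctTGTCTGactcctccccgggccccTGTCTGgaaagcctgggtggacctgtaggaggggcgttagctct
Postn: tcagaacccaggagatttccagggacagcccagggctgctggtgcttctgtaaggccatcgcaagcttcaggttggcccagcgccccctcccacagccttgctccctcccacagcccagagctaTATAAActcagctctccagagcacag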

How the data were processed

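Bulk RNA-seq libraries of cultured SCs, 3 WT and 3 *Plxnb1-/-*, were grouped by the genotype in the labels. Submitters' notes name Trim Galore 0.6.5, Bowtie2 2.4.1, SAMtools 1.10, and featureCounts, and build mm10. The deposited counts are raw exonic counts per gene, made by the authors from reads aligned with Bowtie2, which does not span introns, so reads over junctions of these genes, with 20 to 45 merged exons each, can be lost. The authors also deposited FPKM values computed from the counts, used here only as an alternative on the log2(FPKM + 0.1) and log2(FPKM + 1) scales. Of 55401 genes, 55141 matched GENCODE M21, which gave symbols, coordinates, and exon lengths.

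The 22318 genes that reached 2 counts in 5 or more libraries were tested with edgeR 4.0.16 (TMM factors, quasi-likelihood test, a design of genotype alone, Benjamini-Hochberg adjustment across the tested genes) in R 4.3.3. Calls required an adjusted p under 0.05 together with a log2 fold change larger than 0.25 in size. CPM used the TMM-scaled library size, likeness used log2 CPM with a prior count of 2, and standard errors came from the log2 fold change and the F statistic. The edgeR and DESeq2 code was tested on simulated data. DESeq2 1.42.0, limma 3.58.1 (voom, and log2 FPKM), other scalings and filters, a term for replicate number, chromosome 9 left out, and each library left out were alternatives. DESeq2 with each library left out was added after seeing the data. Tables were made with Python 3.11.15 and pandas 2.3.3.

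The members and the gene lists (family genes, integrins, other receptors, matrix partners, proteases, TGF-β pathway, serum response factor and YAP genes, and cell type markers) were chosen with earlier results of these data known. The genes named are the members and *Plxnb1*; from each list the genes called by edgeR or DESeq2, the largest rise and fall, and the most abundant; up to 3 genes most like each member; and markers. Some genes that meet these rules are not reported here. Genes that overlap a member, and *Itgb6*, were named after their values were seen.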

Additional observations from a re-analysis of the deposited data

How the results depend on the processing

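The number of genes called over the whole table, 8 with edgeR, moved to 335 with DESeq2, 296 without the filter on low counts, 3 with either log2 FPKM scale, and 2 without chromosome 9. With a library left out, it lay between 4 and 25 in edgeR and between 51 and 946 in DESeq2. Of the 8 matrix genes, 3 were called with DESeq2 and 2 without the filter, and with a library left out DESeq2 called between 0 and 4 and edgeR 0. All other alternatives called 0. The cause of these differences was not tested. Same-numbered libraries did not deviate together (correlations −0.022, 0.008, and 0.065). Of 6 libraries, 2 correlated best with their own number, both of replicate 3. These values show no pairing by number, but so few libraries cannot exclude it. A replicate block moved the count of calls over the whole table from 8 to 5 and called 0 of the 8 matrix genes. The median log2 fold change of the 8 lay between −0.37 and −0.17 with a library left out, the latter without WT replicate 2. The direction of *Fn1*, *Tnc*, *Thbs1*, *Thbs2*, *Thbs3*, *Tnxb*, and *Postn* held in all 17 alternatives each, scalings included, and that of *Thbs4* in 16, the exception being 0.18 without WT replicate 2 (−0.41 without WT replicate 1). The lowest and highest log2 fold changes were −0.38 and −0.18 for *Fn1*, −0.33 and −0.24 for *Tnc*, −0.48 and −0.18 for *Thbs1*, −0.37 and −0.19 for *Thbs2*, and −0.37 and −0.16 for *Thbs3*. Groups did not overlap for 4 of the 8 under each scaling and in FPKM. With TMM scaling, every *Plxnb1-/-* library lay below every WT library in 10.4% of tested genes and above in 9.3%. The shares under the other scalings and in FPKM are not given here. *Thbs4* and *Tnxb*, at 141 to 475 counts per library, are the genes most limited by depth.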
